A study of Caenorhabditis elegans with 2 samples.

Results

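The optimal ZIP-4 peaks on the X chromosome of Caenorhabditis elegans are described here. They were 241 peaks of the authors' optimal set from chromatin immunoprecipitation and sequencing (ChIP-seq), or 18.7% of it; the other 1049 peaks of the set lay on the autosomes. The worms, of strain OP590, carried the mutation unc-119(tm4063) and the transgene wgIs590, which holds unc-119(+) and zip-4 fused to the tags TY1, EGFP (a green fluorescent protein) and 3xFLAG. They were mixed-sex whole first-stage (L1) larvae of 6 hours, starved after bleaching, and an anti-GFP antibody was used for the precipitation. The 2 biological replicates form 1 group, and no sample without the tag, in another state or for another factor was used here. Whole larvae mix all tissues, and the labels give neither the promoter of the transgene nor a change to the worms' own zip-4.

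The set was chosen on signal. The optimal peaks were the regions with the highest signal value in the authors' list of 30000 pooled candidate regions (4.3% of it), and the members were those of them on X. Their signal values and their recurrence in the replicates are therefore given as descriptions. What the choice did not use, namely their position, genes and sequence, is set beside 5825 background regions, which were the X candidates of the same pooled list that touched no optimal peak. The background is the weaker end of one ranking. The signal value had a median of 130 (79.97 to 3733) in X peaks and of 33.96 (at most 79.78) in X background regions, on a scale that the sources used here do not state. Shares carry exact 95% Clopper-Pearson intervals that cover counting over regions only. No test was made, since peaks of 1 group are not replicates, and sequencing depth is not given in the sources used here.

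ZIP-4 belongs to the basic leucine zipper (bZIP) family, whose members bind DNA as dimers. Factors of the C/EBP branch of that family, which in the worm includes CEBP-1, recognise near-palindromic sites built of the parts TTGC and GCAA, and TTGCGAAA is a word of this type. The worm X chromosome is also the target of the dosage compensation complex, a condensin-like complex that lowers X transcription in XX animals. It is loaded at recruitment sites on X that hold a motif with the core GCGCAGGG. tRNA genes, many of which lie on X, are transcribed by RNA polymerase III from promoters inside the gene.

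Both words occurred at the strongest X summits, and the stretches that hold them are shown first. Sequences are from the RefSeq assembly WBcel235, which is the same assembly as ce11, and all are read 5′ to 3′ on the strand on which the word reads TTGCGAAA, with that word in capitals. The stretches of the 7 strongest X peaks with TTGCGAAA within 50 bp of the summit were these, each named for the gene with the nearest protein-coding start.
nipi-3: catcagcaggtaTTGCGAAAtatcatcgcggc
cebp-1: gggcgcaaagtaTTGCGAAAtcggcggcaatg
ftt-2: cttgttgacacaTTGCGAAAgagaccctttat
M163.11: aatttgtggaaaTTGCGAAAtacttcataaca
nhx-5: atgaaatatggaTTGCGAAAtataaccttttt
mrp-2: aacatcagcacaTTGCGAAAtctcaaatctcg
C30E1.4: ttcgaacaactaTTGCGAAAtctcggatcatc

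All 13 X peaks with the dosage compensation core are shown in the same way from the strongest to the weakest, on the strand on which the core reads GCGCAGGG, with the core in capitals. F20B6.9 stands for a pair of peaks whose summits were 548 bp apart.
xol-1: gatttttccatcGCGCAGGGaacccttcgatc
W02H3.3: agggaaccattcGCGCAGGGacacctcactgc
nspc-17: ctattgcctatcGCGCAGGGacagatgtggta
F20B6.9: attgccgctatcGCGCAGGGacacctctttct
cest-16: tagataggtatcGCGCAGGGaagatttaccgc
Y41G9A.17: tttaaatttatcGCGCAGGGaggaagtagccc
gtr-1: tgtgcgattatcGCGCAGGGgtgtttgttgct
ins-39: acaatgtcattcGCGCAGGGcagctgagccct
col-185: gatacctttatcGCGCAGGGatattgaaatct
T24D8.6: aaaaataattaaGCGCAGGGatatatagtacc
R04E5.9: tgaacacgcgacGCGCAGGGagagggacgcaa
dpy-23: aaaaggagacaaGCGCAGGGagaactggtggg
F20B6.9: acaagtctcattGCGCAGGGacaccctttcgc

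Around TTGCGAAA the base just before the word was A in 33 of the 40 X peaks that held it, and the base just after it was T in 34. Around GCGCAGGG the preceding base was C in 10 of 13 stretches, the base before that was T in 10, and the base after the core was A in 11. Where a window held several copies, the copy nearest to the summit is the one shown. The centre of TTGCGAAA lay a median of 11.5 bp from the summit, and that of GCGCAGGG a median of 17.5 bp. It lay within 25 bp in 27 of 40 and in 9 of 13 peaks. The word stood on the plus strand in 19 of 40 and 7 of 13.

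**Figure D1:**
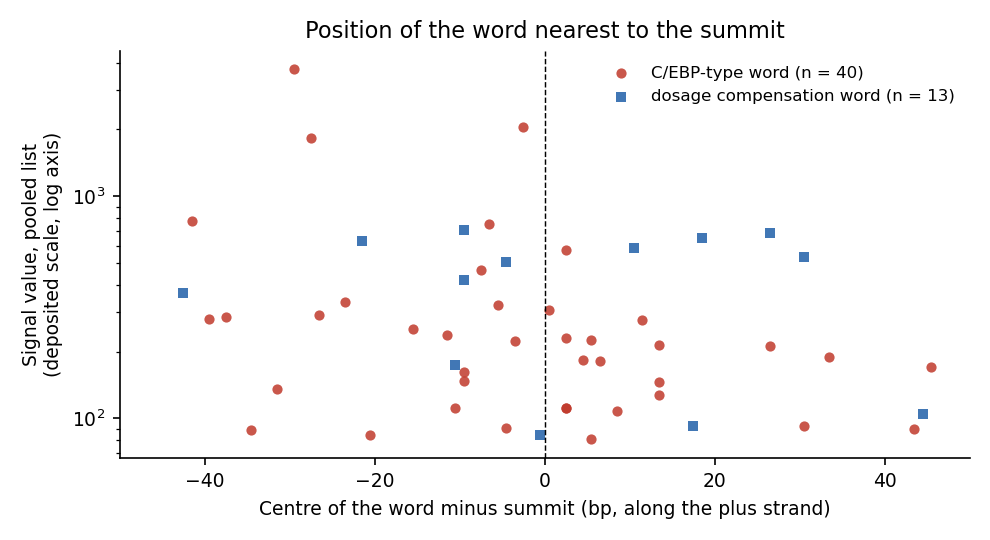
Signal value in the pooled list (log axis) against the distance in bp from the summit to the centre of the nearest copy of the word, for the 40 X peaks with TTGCGAAA (circles, C/EBP-type word) and the 13 with GCGCAGGG (squares, dosage compensation word). The 3 strongest points are TTGCGAAA peaks, and 9 of the 13 squares have a signal value of 366.7 or more.

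The strongest X peaks lay upstream of genes for a Tribbles-family pseudokinase, a C/EBP-type factor, a 14-3-3 protein and an elongation factor. The peak of nipi-3, the pseudokinase gene, at chrX:15607407-15607982 was ranked 1 genome-wide in the pooled list (signal value 3733), in replicate 1 (2509) and in replicate 2 (1252). Its summit stood at -298 bp from the start. The peak of cebp-1 at chrX:1454270-1454743 had 2049, 1387 and 679.2 in these lists, in that order, with its summit at -658 bp. Both genes are known from worm immunity and development, where they act through the PMK-1 p38 kinase pathway. A weaker peak with TTGCGAAA stood 2724 bp downstream of the start of nipi-3 (signal value 214.5).

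The peak of ftt-2, the 14-3-3 gene, at chrX:11605670-11606471 had 1833 (pooled), 1213 (replicate 1) and 632.4 (replicate 2), at -576 bp. The same interval held another summit at -811 bp (331.3), so that 2 of the 241 members lay in the promoter of ftt-2; 238 intervals were distinct. The peak of eef-1A.2, a gene for elongation factor 1A, at chrX:7823118-7823456 had 1287 (pooled), 848.5 (replicate 1) and 444 (replicate 2), at -367 bp. It held neither TTGCGAAA nor GCGCAGGG but a GAGAGAGA run, in capitals in its window on the plus strand.
eef-1A.2: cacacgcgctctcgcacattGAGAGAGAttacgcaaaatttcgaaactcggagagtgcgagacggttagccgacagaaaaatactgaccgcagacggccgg

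The next peaks in promoters were those of nhx-5 (a sodium-proton exchanger, signal value 747.6), nspc-17 (651.6), mrp-2 (an ABC transporter, 571.4), ins-39 (an insulin-like peptide, 420.7) and puf-9 (a Pumilio-family RNA-binding protein, 409). With nipi-3, cebp-1, ftt-2 and eef-1A.2 they make 9 of the 25 strongest X peaks, or 36% (18 to 57.5%). The other 16 had no protein-coding start within promoter range, taken here as 1000 bp upstream to 200 bp downstream. Among the 25 strongest autosomal peaks, 21 were in promoters, and 76 of the 89 autosomal peaks with at least the signal value of the 25th X peak (85.4%).

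Of those 16 peaks away from promoters, 6 held GCGCAGGG and 2 held TTGCGAAA. The strongest was at chrX:14476610-14476946 (774.1), intergenic, 2571 bp upstream of M163.11 and within 200 bp of an snRNA gene, and it held both TTGCGAAA and TTGCGCAA, the full palindrome. The next was at chrX:8036282-8036652 (706.3), intergenic, 4865 bp upstream of xol-1, the gene that sets sexual fate and dosage compensation from the X-to-autosome ratio. It held 2 copies of GCGCAGGG in its window, in capitals, on opposite strands.
xol-1: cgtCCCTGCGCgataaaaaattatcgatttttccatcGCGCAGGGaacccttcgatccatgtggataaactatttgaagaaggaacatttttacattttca

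The other peaks with the core away from promoters among the 25 strongest were at chrX:11093980-11094357 (683.2), 3983 bp downstream of the start of W02H3.3, chrX:4209140-4209441 (627.5), 1806 bp upstream of F20B6.9, and chrX:6296364-6296770 (583.1), 3373 bp upstream of cest-16 and intronic. Further ones were at chrX:2996951-2997325 (533.9), intronic and 2656 bp downstream of the start of Y41G9A.17, and chrX:806551-806787 (508.4), 3904 bp downstream of the start of gtr-1. The peak at chrX:16930788-16931071 (467.5) held 2 copies of TTGCGAAA and stood 6982 bp from the start of C30E1.4.

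The remaining 8 of the 16 held neither word. They lay nearest to ZK899.6 (chrX:9465696-9466025, signal value 658.4), C30E1.4 (chrX:16929450-16929963, 654.6), K02D3.1 (chrX:13700682-13701041, 576.9) and F55G7.5 (chrX:11937404-11937659, 538.6). The others were nearest to F22H10.2 (chrX:16681984-16682225, 533.5), C41A3.2 (chrX:5429441-5429656, 503.3), F19H6.5 (chrX:12363115-12363365, 502.3) and T27A8.7 (chrX:16056469-16056738, 371.7). The summit nearest to C41A3.2 was the farthest from a start among the 25 strongest, at 15192 bp, and lay in coding sequence. In a search added after these windows were seen, which allowed 1 mismatch in GCGCAGGG, 11 of the 16 held it, including the 6 with the exact word. This looser word was in 15.4% of all X peaks, 2.01% of X background regions and 7.53% of autosomal peaks. The window nearest to ZK899.6 shows a related word, GCGAAGGG, in lower case within its run.
ZK899.6: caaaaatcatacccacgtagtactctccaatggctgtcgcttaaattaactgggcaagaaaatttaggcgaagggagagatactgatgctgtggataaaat

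GCGCAGGG was found at X summits and at no autosomal summit of the optimal set. It was in 13 of 241 X peaks (5.39%, 2.9 to 9.05%), against 3 of 5825 X background regions (0.0515%) and 0 of 1049 autosomal peaks, an upper 95% bound of 0.351%. Windows of the same length centred 247 bp upstream of the start, the median place of X promoter summits, held it for 3 of 2731 X protein-coding genes (0.11%). The word itself is not confined to X. It occurred 81 times on X (4.57 per Mb) and 233 times on the autosomes (2.82 per Mb), counting both strands. Of the X occurrences 15 lay within 50 bp of a member summit (18.5%, 10.8 to 28.7%), against 0 of 233 on the autosomes, an upper 95% bound of 1.57%. In each replicate alone, among its top regions, meaning as many of its strongest regions as the optimal set holds, it was in 11 X regions and 1 autosomal region of replicate 1, and in 10 X regions and 0 autosomal regions of replicate 2.

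The 13 peaks had a higher median signal value and a larger median distance from starts than all X peaks. Their signal value had a median of 508.4 (84.07 to 706.3), against 130 for all X peaks. Of the 13, 8 were among the 25 strongest X peaks. In promoters were 3 (23.1%, 5.04 to 53.8%), those of nspc-17, ins-39 and R04E5.9. Over 2000 bp from a start were 7, and the median distance was 2656 bp. All X peaks had 48.5% in promoters, which the interval of the 13 includes, 31.5% over 2000 bp and a median of 937 bp. X background regions had 23.2%, 38.1% and 1490 bp. In both replicates 12 of the 13 had a partner summit within 100 bp among the top regions. They ran along much of the chromosome, from a summit at 806682 to one at 14525885. Whether a tagged protein other than ZIP-4 would give the same peaks was not tested, since no such sample was used here.

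TTGCGAAA was in 40 of 241 X peaks (16.6%, 12.1 to 21.9%), against 1.12% of X background regions and 177 of 1049 autosomal peaks (16.9%, 14.7 to 19.3%). Windows centred 247 bp upstream of X genes held it in 0.769%. X had 1292 occurrences, of which 42 (3.25%, 2.35 to 4.37%) were at member summits, and the autosomes had 6600, of which 194 (2.94%, 2.55 to 3.38%) were at peak summits. The intervals of X and autosomes overlap for this word in both counts. Of the 40 peaks 24 were in promoters (60%, 43.3 to 75.1%), and their signal value had a median of 212.9 (80.57 to 3733).

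No X peak held both TTGCGAAA and GCGCAGGG, and none with either word lay within 200 bp of a tRNA gene. Among the 25 strongest X peaks, 7 held TTGCGAAA and 8 held GCGCAGGG, while 19 of the 25 strongest autosomal peaks held TTGCGAAA. The weakest of these had a signal value of 371.7 on X and 747.7 on the autosomes, so the groups differ in strength. Among the 10 strongest X peaks (654.6 or more), 5 held TTGCGAAA. Of the other words searched, also on both strands, GAGAGAGA was in 12 X peaks (4.98%, against 0.91% of X background regions and 5.24% of autosomal peaks). TTGCGCAA was in 4 (1.66%, against 0.258% of X background regions), 2 of them with TTGCGAAA. TTACGAAA was in 2 X peaks (0.83%, 0.101 to 2.97%, against 0.67% of X background regions). The CREB-type core TGACGT was in 15 (6.22%, 3.53 to 10.1%, against 4.07%). The E-box CACGTG was in 9 (3.73%, 1.72 to 6.97%, against 1.77%). The GATA-type word AGATAA was in 8 (3.32%, 1.44 to 6.44%, against 5.56%). From TTACGAAA on, each of these intervals includes the share of X background regions. Base composition moved with membership. GC content within 50 bp of the summit had a median of 48.5% in X peaks, 38.6% in X background regions and 46.5% in autosomal peaks. Among the 2383 X background regions of 40 to 60% GC, TTGCGAAA was in 1.05% and GCGCAGGG in 0.0839%.

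X peaks were nearer to starts than X background regions and farther from them than autosomal peaks. Their summits lay in a promoter in 117 of 241 cases (48.5%, 42.1 to 55%), against 23.2% of X background regions and 759 of 1049 autosomal peaks (72.4%, 69.5 to 75%). Autosomal candidates of the pooled list that touched no optimal peak, called autosomal background regions here, lay in a promoter in 29% of cases. Within 200 bp of a start lay 50 X peaks (20.7%, 15.8 to 26.4%), against 10.3% of X background regions and 39.1% of autosomal peaks. Over 2000 bp away lay 76 X peaks (31.5%, 25.7 to 37.8%), against 38.1% of X background regions and 11.7% of autosomal peaks. Autosomal background regions had 12.7% within 200 bp and 29.9% over 2000 bp. The median distance was 937 bp in X peaks and 1490 bp in X background regions. On the autosomes it was 281 bp in peaks and 1126 bp in background regions. In the replicates alone the promoter share was 49.2% of 238 X regions and 72.1% of autosomal regions among the top regions of replicate 1, and 45.3% of 247 and 68.5% in replicate 2.

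**Figure D2:**
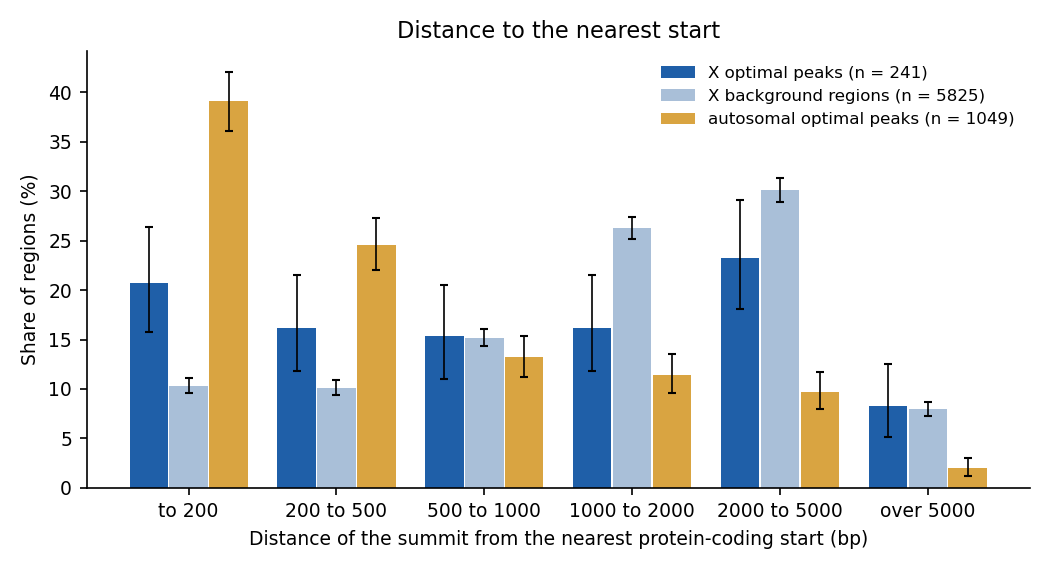
Share of regions (%) by distance in bp from the summit to the nearest protein-coding start, for X peaks, X background regions and autosomal peaks, with 95% Clopper-Pearson intervals as error bars. X peaks stand above the X background within 500 bp and below it from 1000 to 5000 bp, and autosomal peaks stand above both within 500 bp.

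The promoter summits on X stood at a median of -247 bp from the start (quartiles -495 and -145 bp), and 108 of 117 were upstream. Summits in promoters of 2 or more genes were few, 6 of 241 (2.49%, 0.919 to 5.34%) against 0.979% of X background regions and 305 of 1049 autosomal peaks (29.1%). Among autosomal background regions the share was 3.51%. The 6 on X were those of C28G1.2 with sec-15 (an exocyst subunit), C27C12.4 with C27C12.1, dhs-25 with D1005.10 and D1005.4, glit-1 with dnj-14, lev-9 with mom-1, and trap-2 with ile-2. At these the gene cannot be told from the position alone.

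By annotation 154 X summits were intergenic (63.9%, 57.5 to 70%), against 35.5% of X background regions and 65.6% of autosomal peaks. Introns held 38 (15.8%, against 27.5% of X background regions) and coding sequence 5 (2.07%, against 26.8%). In 5′ UTRs were 6 (2.49%, against 1.77%) and in 3′ UTRs 1 (0.415%, against 3.52%). A further 37 (15.4%) were in exons of non-coding genes, against 4.88% of X background regions; 28 of these were in genes annotated as ncRNA only. Of the summits 20 were over 5000 bp from a start (8.3%, 5.14 to 12.5%), close to the 7.97% of X background regions.

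Promoter peaks on X belonged to 117 of 2731 protein-coding genes (4.28%), against 1024 of 17242 autosomal ones (5.94%). After the 9 genes above, the strongest were serp-1.1 (362.1), zfp-3 (341.5), the F-box gene fbxb-58 (335) and epn-1 (epsin, an endocytic adaptor, 334). Next came C05G5.2 (325.2), F09C8.2 (306.6), hsp-3 (an Hsp70 of the endoplasmic reticulum, 301.5) and utx-1 (a histone H3 lysine demethylase, 293.2). Genes below the 25 strongest peaks that are on none of the lists that follow were chosen after their values were seen.

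Genes of the bZIP family, the PMK-1 pathway and translation had members. Of 3 bZIP genes on X, cebp-1 had a promoter peak, while atf-4 and atf-6 had none. Of 4 PMK-1 pathway genes, nipi-3 and cebp-1 had one, and the kinase genes mek-1 and sek-1 had none. Of 3 translation factor genes, eef-1A.2 (1287) and ife-2, an eIF4E gene (83.24), had one, as had rpl-11.2 (235.7) of 2 ribosomal protein genes. The peak of rpl-11.2 had 132 in replicate 1 and 98.36 in replicate 2. The only 14-3-3 gene on X was ftt-2.

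Of 5 chaperone genes, hsp-3 and dnj-14 (94) had a promoter peak, and the signal value of hsp-3 was 179.9 in replicate 1 and 122 in replicate 2. Of 3 respiratory chain genes, ucr-2.2 (a complex III core subunit, 175.1) and sdha-1 (the flavoprotein of succinate dehydrogenase, 138.1) had one, and of 3 vacuolar ATPase genes, vha-12 (130).

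Of 14 protein kinase genes of the listed families, cdk-11.2 (197.5), kin-29 (a salt-inducible kinase, 120.7) and aak-2 (the catalytic subunit of AMP-activated kinase, 85.51) had a promoter peak. Of 14 muscle structural genes, act-4 (actin, 115.5), unc-96 (108.7) and stn-2 (syntrophin, 80.28) had one. Of 24 nuclear hormone receptor genes, nhr-48 (136.8), nhr-255 (97.03) and nhr-1 (94.14) had one (12.5%, 2.66 to 32.4%). Of 34 neuropeptide and insulin genes there was 1, ins-39, and of 18 F-box genes there was 1, fbxb-58. Among the lists with a member, the lower 95% bound lay above the 4.28% of all X genes for translation factors and the respiratory chain (9.43% each), the PMK-1 pathway (6.76%), chaperones (5.27%), and kinases and muscle genes (4.66% each). The other lists with a member had intervals that include it. These are 22 lists, most of them of few X genes and written with the X peaks known, so the counts are not independent evidence of any theme.

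No promoter peak was found for 34 chemoreceptor, 29 ligand-gated channel, 27 collagen, 25 homeobox, 19 potassium channel, 14 detoxification and 3 C-type lectin genes on X, nor for the 6 X signal and dosage compensation genes ceh-39, fox-1, sdc-1, sdc-2, sex-1 and xol-1. The upper 95% bounds for the first 6 of these lists ran from 10.3% to 23.2%, above the 4.28% of all X genes, so that these counts do not set them apart. The proteasome list had no gene on X.

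X peaks lay near tRNA genes in 34 cases (14.1%, 9.97 to 19.2%), against 1.75% of X background regions and 27 of 1049 autosomal peaks (2.57%, 1.7 to 3.72%). Among autosomal background regions the share was 0.524%. X holds 276 of 634 annotated tRNA genes, and 39 of these 276 (14.1%, 10.2 to 18.8%) had a member summit within 200 bp. With snRNA, snoRNA and miRNA genes added the share was 15.8% (38 peaks), against 2.04% of X background regions and 11.7% of autosomal peaks. Among X background regions of 40 to 60% GC, a background chosen after seeing the data, the share near any of these small RNA genes was 3.36%. Of X snoRNA genes 3 of 33 had a member near, of snRNA genes 1 of 3, and of miRNA genes 0 of 74, an upper 95% bound of 4.86%.

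The tRNA peaks were scarce among the strongest X peaks and had a lower median signal value than all X peaks. Their signal value had a median of 111.4 (80.28 to 248.5), against 130 for all X peaks, none was among the 25 strongest X peaks, and 7 of 34 were in a protein-coding promoter. The strongest, at chrX:3035893-3036288, had 248.5 (pooled), 168.9 (replicate 1) and 80.65 (replicate 2), and lay near a pair of tRNA genes. Among the 154 X peaks with neither word and no tRNA gene near, 83 were in promoters (53.9%, 45.7 to 61.9%), with a median signal value of 121.8. How reads that map to several near-identical tRNA genes were counted is not given in the sources used here.

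When X peaks were ranked by signal value and cut into 4 groups of 60 or 61, from the strongest down, TTGCGAAA was in 16, 13, 5 and 6 of them. GCGCAGGG was in 9, 1, 1 and 2, and a tRNA gene was near 2, 10, 12 and 10. Promoter summits numbered 29, 33, 29 and 26. The count of each word was highest in the strongest group and that of tRNA genes lowest there, but the intervals of the strongest and the weakest group overlap for each of them. TTGCGAAA, for example, had 15.8 to 39.1% in the strongest group and 3.76 to 20.5% in the weakest. The intervals of the promoter share overlap across all 4 groups.

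**Figure D3:**
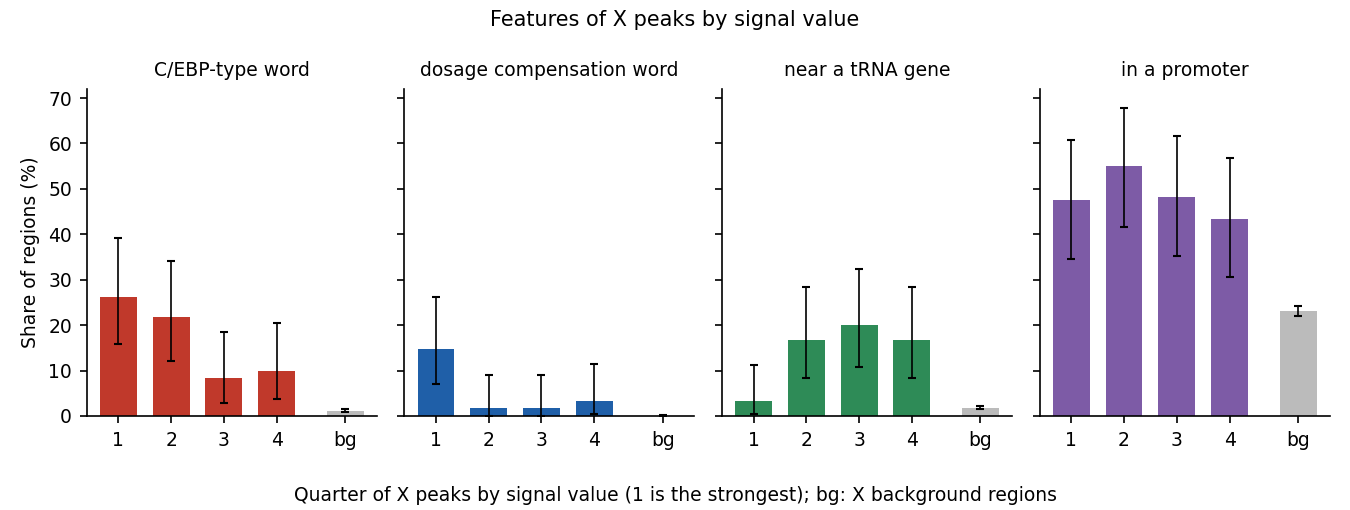
Share (%) of X peaks with TTGCGAAA (C/EBP-type word), with GCGCAGGG (dosage compensation word), within 200 bp of a tRNA gene and in a promoter, in 4 groups by signal value (1 is the strongest) and in X background regions (bg), with 95% Clopper-Pearson intervals. TTGCGAAA is in 26.2% of the strongest group and 10% of the weakest, and every group stands above the background for promoters.

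Most X peaks recurred among the top regions of each replicate, and the weaker ones did so less often. A partner summit no more than 100 bp away was among the top regions of replicate 1 for 211 of 241 (87.6%, 82.7 to 91.4%), of replicate 2 for 183 (75.9%, 70 to 81.2%), and of both for 162 (67.2%, 60.9 to 73.1%). Both held 68.1% of autosomal peaks. Neither held 9 X peaks. In the 4 groups by signal value the counts in both were 61, 55, 42 and 4. These counts take only the top regions of each replicate, and the weakest members stand at the end of that range in the pooled list. In the full replicate lists, at any rank, 61, 56, 56 and 49 had a partner in both. Since the authors chose the set from these same replicates, the shares are not independent of that choice.

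Across the 222 X peaks with a partner region in both full lists, the Spearman correlation of the signal values was 0.83 and the Pearson correlation of their log2 values 0.90. These points share 2 libraries and 1 control alignment, and peaks are not independent. The value in replicate 1 was a median of 1.83 times that in replicate 2 (0.619 to 5.05), on scales that need not be equal, and was lower in 6 peaks. The ratio had a median of 2.01 (1.42 to 3.02) at TTGCGAAA peaks, 1.59 (1.13 to 2.06) at GCGCAGGG peaks and 1.84 (0.898 to 4.55) near tRNA genes.

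**Figure D4:**
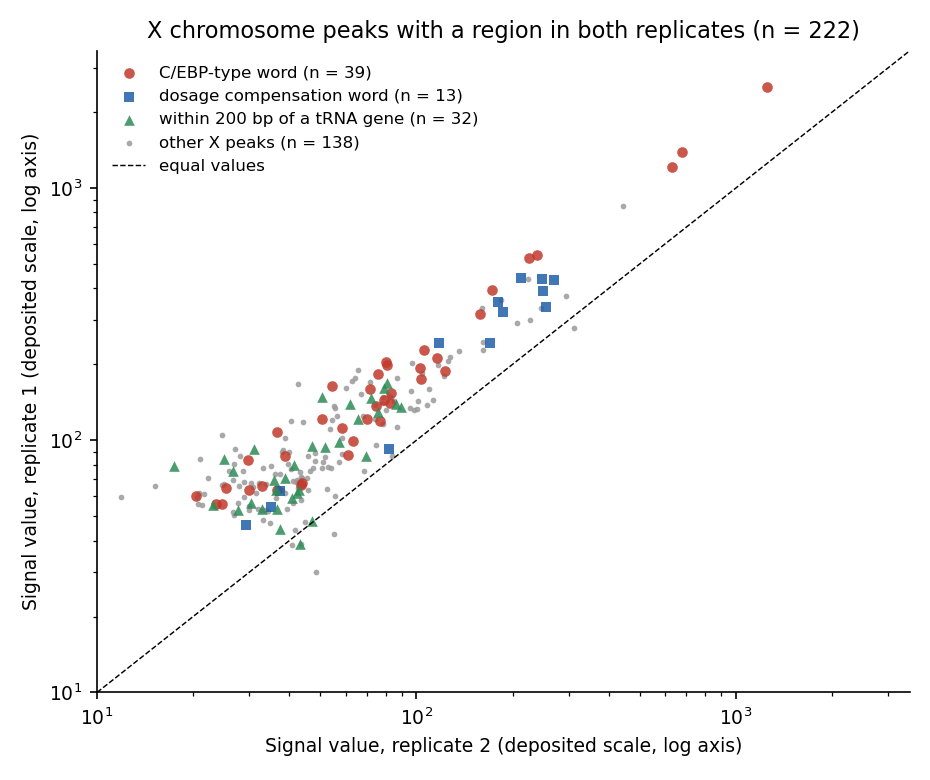
Signal value in replicate 1 against replicate 2 (both log axes, deposited scales) for the 222 X peaks with a region in both lists, by class of peak; the dashed line marks equal values. All but 6 points lie above the line. The ratio of replicate 1 to replicate 2 ran from 1.13 to 2.06 for the squares (GCGCAGGG) and from 1.42 to 3.02 for the circles (TTGCGAAA), so the ranges overlap.

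In replicate 1, 5 X peaks had no partner summit within 100 bp or one ranked beyond 10000, and in replicate 2 there were 17. The strongest 3 of these were lacking in replicate 2 and lay 2990 bp upstream of sma-9 (166.9), 76 bp downstream of the start of M60.4 (147.7) and 4440 bp upstream of R03E9.2 (145.7). Their ranks in replicate 1 were 553, 464 and 566. At the edge of the set, the 3 weakest X peaks had signal values of 79.97 (862 bp downstream of the start of F47G3.4), 80.28 (407 bp upstream of stn-2, near a tRNA gene) and 80.57 (326 bp upstream of set-30, with TTGCGAAA). The 3 strongest X regions just outside had 79.78 (137 bp upstream of nhr-25), 79.59 (77 bp upstream of C36E6.2) and 79.57 (4192 bp downstream of the start of Y15E3A.4). Members and non-members thus differ by under 1 unit of signal at the edge.

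X peaks were spread along the whole chromosome. There were 13.6 per Mb, with 5 to 22 in any full Mb, and the largest gap between neighbouring summits was 401674 bp. In 10 equal segments from the left end of the chromosome, X peaks numbered 23, 20, 29, 26, 26, 15, 19, 23, 32 and 28. The lowest share was 6.22% (3.53 to 10.1%) in segment 6, against 9.99% of X background regions, and the highest was 13.3% (9.26 to 18.2%) in segment 9, against 10.4%. The interval of each segment includes the share of X background regions there. It does not always include the share of protein-coding genes. Segment 10 held 11.6% of X peaks (7.86 to 16.4%) and 7.29% of genes. X held 18.7% of optimal peaks (16.6 to 20.9%), 20.3% of pooled candidates, 17.7% of the assembled chromosomes' length and 13.7% of protein-coding genes. Among the top regions of replicate 1 there were 238 on X, and of replicate 2 there were 247.

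**Figure D5:**
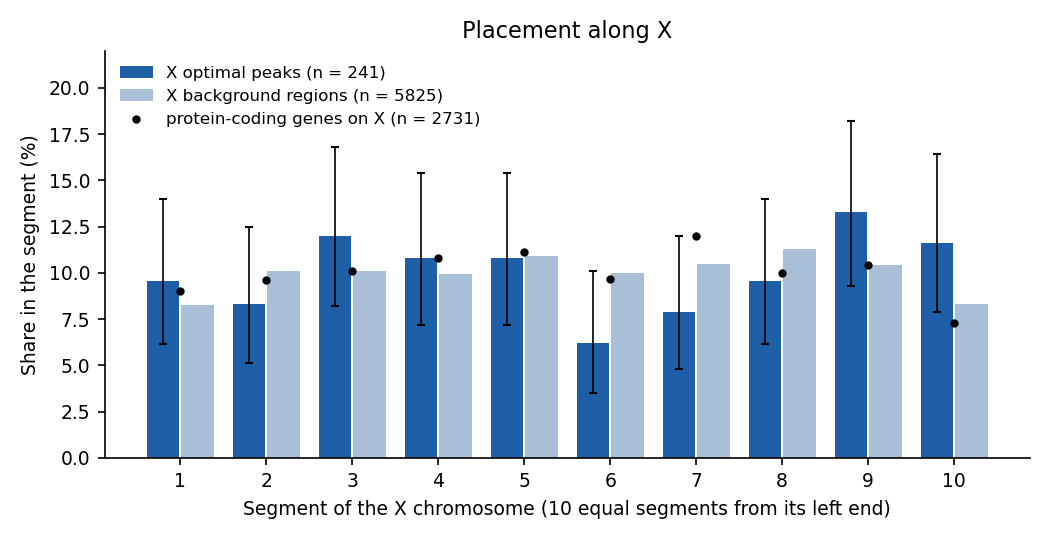
Share (%) of X peaks, X background regions and protein-coding genes in 10 equal segments of the chromosome from its left end, with 95% Clopper-Pearson intervals for X peaks. The X peaks run from 6.22% in segment 6 to 13.3% in segment 9, and each interval includes the share of background regions. In segment 10 the interval lies above the share of genes (7.29%).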

How the data were processed

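The authors deposited 4 lists of regions (narrowPeak), on ce11 per the labels: 30000 candidates for each of 2 biological replicates and for their pooled reads, and the optimal set kept by the irreproducible discovery rate method. The deposited signal value ranks the regions. Its scale, like the aligner, the caller and the depth, is not given in the sources used here. The authors deposited a −log10 q-value that is capped, with 155 of 241 X peaks at the cap; a q-value of at most 0.05 was reached by 241 X peaks and 31 X background regions. The labels' antibody field names zip-4 and their description anti-GFP, which is followed here. Chromatin was sonicated to 200 to 800 bp, per the labels.

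Summits are the deposited offsets, and coordinates are 1-based. Genes came from Ensembl release 115 and sequence from RefSeq WBcel235. Promoters, classes, words (within 50 bp, both strands) and partner summits (within 100 bp) were counted in Python 3.11.15 with pandas 2.3.3 and scipy 1.17.1, by functions tested on simulated data. Members, words and the 22 gene lists were chosen with earlier results of these data known. Genes named are those of the 25 strongest X peaks, up to 4 per list, genes sharing such a promoter, those at the edge of the set and those weakest in a replicate; the others were chosen after their values were seen. Alternatives are other lists, widths, windows and backgrounds. No batch is given in the labels.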

Additional observations from a re-analysis of the deposited data

How the results depend on the processing

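Alternatives were set against X background regions for promoters, shared promoters, summits within 200 bp of a start, intergenic summits, TTGCGAAA, GCGCAGGG and small RNA genes. For each of these the share of X peaks stood above that of X background regions under every alternative run. For shared promoters the reading depended on the width. From 1000 bp upstream to 200 bp downstream the interval included the background share: 2.49% of X peaks (0.919 to 5.34%) against 0.979% of X background regions. In replicate 1 alone it was 1.68% (0.46 to 4.25%) against 1.16%. At the other widths the interval lay above the background share. It was 2.07% (0.677 to 4.77%) against 0.412% from 500 bp upstream to 100 bp downstream. From 2000 bp upstream it was 10.4% (6.83 to 14.9%) against 3.83%. Promoter shares moved with the width used, to 35.3% of X peaks from 500 bp upstream to 100 bp downstream (13.7% of X background regions, 60.5% of autosomal peaks) and to 58.9% from 2000 bp upstream (37.6% and 81%). The order of X peaks between both other sets held at each width. Without members near tRNA genes or with GCGCAGGG, a setting chosen after seeing the data, the promoter share was 55.2%. TTGCGAAA was in 24.8% of the 117 X peaks among the stronger 50% of optimal peaks, and in 10.8% with a window of 25 bp each side. With up to 1 mismatch, chosen after seeing the data, GCGCAGGG was in 15.4% of X peaks, 2.01% of X background regions and 7.53% of autosomal peaks, so the looser word is not limited to X. Recurrence in both replicates was 97.4% among that stronger 50% and 58.5% with summits within 50 bp, and it ran from 75.9% to 87.6% when 1 replicate was required. The stronger 50% gave 61 genes with a promoter peak on X. No paired analysis was possible because there was 1 group. Depth is unknown, so no value has a limit from sequencing, and with 2 replicates and no sample without the tag the peaks that any tagged protein would give cannot be told apart from those of ZIP-4.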

Other observations

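In a count of all words of 8 bases at X summits, made after seeing the data, 34 words were in at least 10 X peaks. These words overlap one another, and no test was made. Not all of them were more frequent at X peaks than in the background: GAAAAAAA was in 4.56% of X peaks and 5.99% of X background regions. CGCAGGGA, which is the dosage compensation core shifted by 1 base, was in 13 X peaks, 2 X background regions and 3 autosomal peaks. GCGAAGGG, which has 1 mismatch to the core, was in 11 X peaks (4.56%), 4 X background regions (0.0687%) and 1 autosomal peak (0.0953%). GTGGATAA is not among the 34 words and was added by hand. It was in 6 X peaks (2.49%), 12 X background regions (0.206%) and 0 of 1049 autosomal peaks, an upper 95% bound of 0.351%. Autosomal background regions held it in 0.273% of cases, which that bound includes. GAGACGCA was in 20 X peaks (8.3%), 0.601% of X background regions and 8.29% of autosomal peaks, so that it was about as frequent on X as elsewhere. GTATTGCG, which extends TTGCG to the left, was in 11 X peaks (4.56%), 0.12% of X background regions and 2.57% of autosomal peaks.

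X peaks also stood close together in places. Of the 241 summits, 26 had a neighbour within 1000 bp and 75 within 5000 bp, with a median gap of 38568 bp. Some neighbours are summits of the same interval, since 238 intervals were distinct. No such counts are given here for background regions or autosomal peaks. Near C30E1.4 lay 3 summits with signal values of 654.6, 467.5 and 244.2, between 5705 and 6982 bp from its start. Upstream of xol-1 a summit with a tRNA gene near (148) lay 4656 bp from the start, beside the one with 2 copies of GCGCAGGG. Counting 1 member per run of summits no more than 1000 bp apart left 228 members, of which 49.6% were in promoters, 17.5% held TTGCGAAA and 5.26% held GCGCAGGG.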
